A study of Mus musculus with 36 samples.

Results

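The genes described here are 9 regulators and effectors of heat production in adipocytes, Ppargc1a, Ppargc1b, Prdm16, Ebf2, Dio2, Kcnk3, Ucp1, Ucp2 and Ucp3. They were chosen by name, as the non-control probes of the array whose gene name was one of these symbols, which gave 15 of the 41174 probes, and 9 of the 27745 gene names on the array. Ppargc1b and Ucp2 had 3 probes each, Ppargc1a and Kcnk3 had 2 each, and the other genes had 1 each. RNA came from the epididymal white fat, which lies next to the testis, of 36 adult male C57BL/6J mice, an inbred strain, with 1 array per animal. Every animal first ate a purified diet with 30 energy% fat without restriction for 3 weeks, and 12 were killed at that point (t=0). Another 12 ate this diet freely for 12 more weeks (HF-AL), and the last 12 were held at 70 energy% of it over those 12 weeks, with vitamins and minerals topped up to the intake of the free-fed animals (HF-DR). Animals of HF-AL and HF-DR were thus 12 weeks older than those of t=0, so age and feeding cannot be told apart in any comparison with t=0. Each animal's RNA was labelled with Cy5 and hybridised against a Cy3 pool of all animals, and the values below are log2 ratios of animal to pool.

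Brown and beige adipocytes burn fuel for heat in mitochondria that carry UCP1, a proton channel of the inner membrane, whereas white adipocytes mainly store triglyceride. PGC-1α and PGC-1β (Ppargc1a, Ppargc1b) are transcriptional coactivators that drive mitochondrial biogenesis and oxidative genes. PRDM16 and EBF2 are transcriptional regulators of brown and beige adipocyte identity, and EBF2 also marks progenitors of these cells. DIO2 is the deiodinase that makes active thyroid hormone from thyroxine inside the cell, KCNK3 is a potassium channel of the cell membrane that marks brown and beige adipocytes, and UCP2 and UCP3 are relatives of UCP1 that do not replace it in heat production. Epididymal fat of mice is known as a depot with little browning.

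The shares of probes well above background ran from 44.6% (HF-DR 5) to 86.3% over the arrays. Adipoq, Plin1, Fabp4 and Cidec, which define adipocytes, were well above background on 36 of 36 arrays. Arrays HF-DR 8 and 9 stood apart, with mean log2 ratios of 4.39 and 4.04 over 8 markers of epididymis and seminal vesicle, and HF-DR 7 was at -0.26. On the other 33 arrays this mean lay between -4.31 and -2.08. Arrays HF-AL 5, 7 and 9, in which other transcripts of the male tract were known from an earlier look at these data, lay between -4.26 and -3.91 in this list. The arrays were scanned on 21 slides, of which 3 held HF-DR and HF-AL together, 9 held HF-AL and t=0 and 6 held HF-DR and t=0. Another 6 held only HF-DR (HF-DR 7 to 12) and 3 only HF-AL (HF-AL 1 to 3). Differences are also given with the slide as a block and within slides. These draw nothing from arrays of a slide with a single group, so HF-DR 7, 8 and 9 do not enter them. In bulk tissue, fewer cells of a type and less RNA per cell cannot be told apart.

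Promoter sequences of 6 of the 9 genes were at hand. Those of Dio2, Ppargc1a and Ucp3, which rose together under restriction, and of Ucp2, the neighbour of Ucp3 on chromosome 7 that did not, are shown for comparison. Each is the 250 bases before the annotated start, 5′ to 3′ on the strand of the gene, from RefSeq on GRCm38.p6. Capitals mark TGACG or AGGTCA read on either strand, the first of which is the core of cAMP response elements and the second the half-site of many nuclear receptors.
Dio2 (chr12:90739039-90739288, minus strand): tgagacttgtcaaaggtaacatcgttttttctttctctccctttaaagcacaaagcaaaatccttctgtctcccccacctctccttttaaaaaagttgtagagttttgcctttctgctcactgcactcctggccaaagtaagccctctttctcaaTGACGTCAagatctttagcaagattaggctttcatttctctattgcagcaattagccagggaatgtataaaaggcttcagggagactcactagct
Ppargc1a (chr5:51567726-51567975, minus strand): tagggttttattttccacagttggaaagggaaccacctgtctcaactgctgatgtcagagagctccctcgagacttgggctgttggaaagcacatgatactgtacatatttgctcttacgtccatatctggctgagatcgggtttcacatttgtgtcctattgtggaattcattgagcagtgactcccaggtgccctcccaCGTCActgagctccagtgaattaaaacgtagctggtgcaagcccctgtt
Ucp3 (chr7:100472741-100472990, plus strand): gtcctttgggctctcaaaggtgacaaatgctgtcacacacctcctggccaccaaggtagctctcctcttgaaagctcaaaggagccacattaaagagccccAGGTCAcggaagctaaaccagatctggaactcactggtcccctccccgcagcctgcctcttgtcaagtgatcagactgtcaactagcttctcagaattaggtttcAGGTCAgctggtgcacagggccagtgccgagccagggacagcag
Ucp2 (chr7:100493108-100493357, plus strand): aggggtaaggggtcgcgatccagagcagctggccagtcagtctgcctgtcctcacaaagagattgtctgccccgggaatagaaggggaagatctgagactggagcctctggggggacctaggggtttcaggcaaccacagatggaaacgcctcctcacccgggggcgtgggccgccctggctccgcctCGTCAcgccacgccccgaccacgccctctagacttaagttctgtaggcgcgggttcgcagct

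The full palindrome TGACGTCA, which contains TGACG on both strands, stood in the Dio2 promoter 95 bases before the start, and 1.55% of 32851 promoters of this length held it. The shorter TGACG stood 49 bases before the start in Ppargc1a, 62 in Ucp2 and 147 in Ucp1, and 17.8% of promoters held it. AGGTCA stood 149 and 44 bases before the start of Ucp3 and 14 before that of Ucp1, and 14.0% of promoters held it. TATAAA was found only in Dio2 among the 6, 30 bases before the start, against 12.4% of promoters. No match to any of the 4 motifs was in the window of Prdm16. These matches are descriptions of the sequence. The gene of Ucp3 ends 6904 bases before that of Ucp2 starts in the RefSeq annotation, with no listed gene between them.

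Of the 15 probes, 13 probes of 8 genes passed the filter, which asked for a Cy5 signal well above background on at least 9 of the 12 arrays of at least 1 group. Apart from probe 2 of Ucp2, above background on 11 of 12 HF-DR arrays, each of the 13 was above background on all 36 arrays. None was saturated. The Ucp1 probe and probe 3 of Ucp2 did not pass and were near background in every group. Probes of a gene are numbered from the brightest to the dimmest.

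Dietary restriction went with higher Ppargc1a, Ppargc1b, Dio2, Kcnk3 and Ucp3 and with lower Ebf2, Prdm16 and, by 1 of its probes, Ucp2. Between HF-DR and HF-AL, 9 of the 13 probes rose, 3 fell and 1 was not called, where a call is an adjusted p under 0.05 in limma. Over all 24706 probes tested, 63.5% were called in this comparison, 30.4% higher and 33.1% lower, so a call alone says little about these genes. Their differences were large for this table, with a median absolute log2 difference of 0.88 against 0.23 over all probes. Groups did not overlap for 2 of the 13 probes, against 13.0% of all probes. Between HF-AL and t=0, 0 of the 13 probes were called by limma, against 0.676% of all probes, 0 had an unadjusted p under 0.05, and none was called under any alternative listed in the closing section. The adjusted p-values ran from 0.533 to 0.977 and the differences from -0.16 to 0.15, and no probe separated the groups, against 0.0405% of all probes. Against t=0, HF-DR had 9 probes higher and 4 lower, where 60.2% of all probes were called, 29.9% higher and 30.3% lower, and 5 of the 13 did not overlap, against 15.2% of all probes. Both comparisons of HF-DR use the same 12 arrays.

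**Figure D1:**
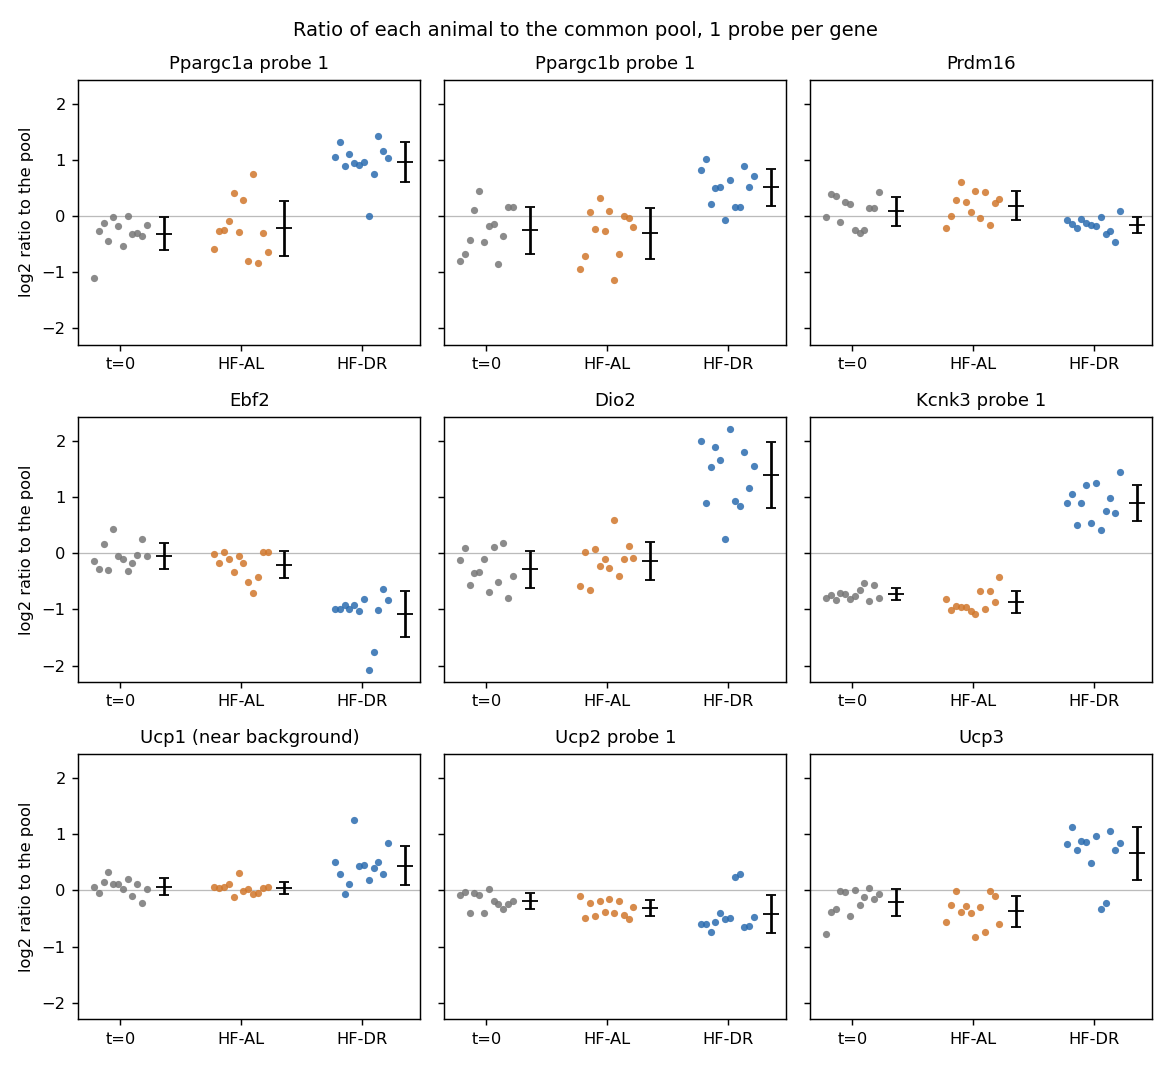
Log2 ratio of each animal to the common pool (y axis) in the t=0, HF-AL and HF-DR groups (x axis) for the brightest probe of each of the 9 genes. Points are animals, and the bar beside them is the mean with its SD (n = 12). HF-DR lies apart from the other groups in Kcnk3, where its lowest array is at 0.41 and the highest HF-AL array at -0.42, while t=0 and HF-AL overlap in every panel.

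The coactivator Ppargc1a was about 2.3 times as abundant in HF-DR as in HF-AL. Its brightest probe (chromosome 5, 51745937 to 51745996 on mm8, reverse strand) had log2 ratios with a lowest, median and highest array of -1.10, -0.28 and -0.01 in t=0, of -0.83, -0.27 and 0.74 in HF-AL and of 0.00, 1.00 and 1.43 in HF-DR. Thus 11 of 12 HF-DR animals lay above every HF-AL animal, and the exception was HF-DR 8, an array with male tract transcripts. The difference HF-DR minus HF-AL was 1.18 ± 0.15 (SE) on the log2 scale, 2.27-fold, with an adjusted p of 1.84e-08. With the slide as a block it was 1.42 ± 0.23, and within the 3 shared slides it ran from 1.52 to 1.88. Probe 2 (51743906 to 51743965) differed by 1.10 ± 0.13, with 10 of 12 HF-DR animals above every HF-AL animal. Against t=0 the groups did not overlap for probe 1, with a difference of 1.28 ± 0.15 and an adjusted p of 3.36e-09.

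Animals of HF-AL spread more in Ppargc1a than those of t=0, with an SD of 0.49 against 0.29. Their 3 highest arrays were HF-AL 9, 5 and 7, at 0.74, 0.41 and 0.28. These were set aside for other tract transcripts known from an earlier look, and the tract marker list did not set them apart. Without HF-AL 5, 7 and 9 and HF-DR 7, 8 and 9 the difference between HF-DR and HF-AL grew to 1.54. Without HF-DR 7, 8 and 9 alone it was 1.31. Leaving out the HF-AL arrays highest in Ppargc1a raises this difference whatever their tract content. Whether tract material had a part in these values was not tested.

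Ppargc1b, the close relative of Ppargc1a, rose as well. The brightest of its 3 probes had a lowest, median and highest array of -0.85, -0.27 and 0.45 in t=0, of -1.13, -0.21 and 0.33 in HF-AL and of -0.07, 0.52 and 1.01 in HF-DR. The groups overlapped, with 8 of 12 HF-DR animals above every HF-AL animal. The difference was 0.82 ± 0.16, 1.76-fold, with an adjusted p of 2.84e-05, and 0.87 ± 0.17 with the slide as a block. Probes 2 and 3 differed by 0.69 ± 0.16 and 0.82 ± 0.16. Within the 3 shared slides probe 1 ran from 0.41 to 1.05, probe 2 from 0.16 to 1.28 and probe 3 from -0.07 to 1.06, and the lowest value of each probe came from the same slide. Against t=0 the probes differed by 0.76, 0.72 and 0.73, with adjusted p-values of 8.30e-05 to 1.83e-04. Probe 2 was no longer called (0.43, adjusted p = 0.062) without 10 of the 12 arrays that carried dark specks, which were set aside in the background correction. Per animal, the ratio of Ppargc1a minus that of Ppargc1b averaged 0.45 ± 0.29 (SD) in HF-DR and 0.09 ± 0.56 in HF-AL. This unequal response of 0.37 ± 0.18 (SE) did not pass a permutation test (p = 0.056, two-sided, adjusted over 3 such pairs to 0.056).

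Ebf2 was 1.84-fold lower in HF-DR than in HF-AL. Its probe (chromosome 14, 66383418 to 66383477 on mm8, forward strand) had a lowest, median and highest array of -0.31, -0.08 and 0.42 in t=0, of -0.71, -0.13 and 0.03 in HF-AL and of -2.07, -0.99 and -0.64 in HF-DR. All HF-DR animals lay below every t=0 animal, and 11 of 12 lay below every HF-AL animal. The lowest arrays were HF-DR 8 and 9, at -2.07 and -1.75. The difference from HF-AL was -0.88 ± 0.12, with an adjusted p of 6.11e-08, and -0.72 without HF-DR 7, 8 and 9. With the slide as a block it was -0.77 ± 0.11, and the 3 shared slides ran from -1.03 to -0.56. Against t=0 the difference was -1.03 ± 0.12, 2.04-fold.

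Prdm16 differed by little. Its probe (chromosome 4; the listed span on mm8 covers only 5 bases, 153159925 to 153159929) had medians of 0.14 in t=0, 0.24 in HF-AL and -0.15 in HF-DR, and ranges of -0.31 to 0.43, -0.22 to 0.61 and -0.46 to 0.10. The groups overlapped widely, and 4 of 12 HF-DR animals lay below every HF-AL animal. The difference from HF-AL was -0.35 ± 0.09, 1.27-fold, with an adjusted p of 0.00119, and in 1 of the 3 shared slides it was 0.09. Against t=0 the difference of -0.24 ± 0.09 was called (adjusted p = 0.0196), but not with the slide as a block (-0.25 ± 0.12, adjusted p = 0.0859). Per animal, Ebf2 minus Prdm16 was -0.92 ± 0.45 (SD) in HF-DR and -0.39 ± 0.34 in HF-AL. Over all arrays of both groups, Ebf2 fell further than Prdm16 by 0.53 on the log2 scale. The value of -0.53 ± 0.16 (SE) had a permutation p of 0.0021 (two-sided, 0.0031 adjusted over the 3 pairs). This test kept the lowest Ebf2 arrays, which held tract transcripts, and took no account of the slide. The slide block draws nothing from those arrays. With it the differences from HF-AL were -0.77 ± 0.11 for Ebf2 and -0.44 ± 0.14 for Prdm16. The gap between the genes was not tested in that setting.

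Kcnk3 was the only 1 of the 9 genes whose HF-DR and HF-AL animals did not overlap. Probe 1 (chromosome 5, 30901298 to 30901357 on mm8, forward strand) had a lowest, median and highest array of -0.86, -0.76 and -0.52 in t=0, of -1.07, -0.95 and -0.42 in HF-AL and of 0.41, 0.90 and 1.45 in HF-DR. Every HF-DR animal, the arrays with tract transcripts included, lay above every other animal. The difference from HF-AL was 1.76 ± 0.09, 3.38-fold, with an adjusted p of 1.29e-18, and from t=0 it was 1.62 ± 0.09, 3.07-fold. Probe 2 (30899761 to 30899820) also separated the groups without overlap, by 1.28 ± 0.08 from HF-AL. With the slide as a block the values for the probes were 1.67 ± 0.12 and 1.42 ± 0.12, and the shared slides ran from 0.92 to 1.93 and from 1.05 to 1.31. Of 11 other two-pore potassium channels on the array only Kcnk6 and Kcnk13 passed the filter, and both were lower in HF-DR, with differences of -0.55 ± 0.07 (adjusted p = 1.16e-08) and -0.19 ± 0.07 (adjusted p = 0.0122), and the latter was not called with the slide as a block (adjusted p = 0.217).

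Dio2 rose in HF-DR, with a wide spread between animals. Its probe (chromosome 12, 91130186 to 91130245 on mm8, reverse strand) was dim, with a median net Cy5 signal of 121 scanner units in t=0, 149 in HF-AL and 580 in HF-DR. The lowest, median and highest log2 ratios were -0.79, -0.34 and 0.18 in t=0, -0.65, -0.11 and 0.59 in HF-AL and 0.25, 1.54 and 2.21 in HF-DR. HF-DR 6 was the lowest restricted animal and the only 1 of 12 inside the range of HF-AL, and none was inside that of t=0. The difference from HF-AL was 1.53 ± 0.17, 2.88-fold, with an adjusted p of 5.84e-10, and 1.37 ± 0.17 with the slide as a block. The 3 shared slides ran from 0.78 to 2.11. Against t=0 it was 1.68 ± 0.17, 3.21-fold.

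Ucp3, the uncoupling protein typical of skeletal muscle and brown fat, was 2.05-fold higher in HF-DR than in HF-AL. Its probe (chromosome 7, 100359864 to 100359923 on mm8, forward strand) had a lowest, median and highest array of -0.77, -0.14 and 0.04 in t=0, of -0.83, -0.34 and -0.01 in HF-AL and of -0.34, 0.83 and 1.13 in HF-DR. In HF-DR, 10 animals lay above every animal of the other groups, and the other two were HF-DR 8 and 9, at -0.34 and -0.22. The difference from HF-AL was 1.03 ± 0.13 on the log2 scale, with an adjusted p of 2.34e-08. It was 1.34 ± 0.13 with the slide as a block, from 0.83 to 1.32 in the 3 shared slides, and 1.21 without HF-DR 7, 8 and 9. Against t=0 it was 0.87 ± 0.13, 1.83-fold.

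Ucp2, which macrophages and many other cells express, went the other way or did not differ, depending on the probe. Probe 1 (chromosome 7, 100373382 to 100373441 on mm8, forward strand) had a lowest, median and highest array of -0.41, -0.19 and 0.02 in t=0, of -0.51, -0.34 and -0.10 in HF-AL and of -0.74, -0.54 and 0.30 in HF-DR. In HF-DR, 7 animals lay below every HF-AL animal, while HF-DR 9 and 8, at 0.30 and 0.24, lay above every animal of the other groups. The difference from HF-AL was -0.11 ± 0.09 (adjusted p = 0.301). It was called at -0.26 (adjusted p = 0.000334) without HF-DR 7, 8 and 9 and at -0.17 (adjusted p = 0.048) without HF-DR 9 alone. With the slide as a block, which also draws nothing from HF-DR 7, 8 and 9, it was called at -0.24 ± 0.08 (adjusted p = 0.0188). From t=0 it differed by -0.24 ± 0.09 (adjusted p = 0.0215), a call that was lost with specks included (-0.16), with scaling between arrays (-0.14) and without 10 speck arrays (-0.18).

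Probe 2 of Ucp2 (100370854 to 100370913) fell in HF-DR. HF-DR 8 and 9 did not stand above the other groups there, though HF-DR 8 was the highest HF-DR array. The probe was dim, with a median net Cy5 signal of 177 scanner units in HF-AL and 81.6 in HF-DR, so the offset may damp its ratio. Its lowest, median and highest arrays were -0.29, -0.07 and 0.10 in HF-AL and -0.77, -0.49 and -0.22 in HF-DR, and 11 of 12 HF-DR animals lay below every HF-AL animal. The difference was -0.43 ± 0.06, 1.35-fold, with an adjusted p of 6.23e-08, and -0.50 ± 0.07 with the slide as a block. From t=0 it differed by -0.51 ± 0.06, 1.42-fold. Probe 3 (100375063 to 100375122) was above background on 3 t=0, 3 HF-AL and 0 HF-DR arrays, so its median ratios of 0.16, 0.04 and 0.07 carry no comparison. Per animal, Ucp3 minus Ucp2 (probes 1) was 1.09 ± 0.79 (SD) in HF-DR and -0.05 ± 0.37 in HF-AL, a difference of 1.14 ± 0.25 (SE) with a permutation p of 0.00038 (two-sided, 0.0011 adjusted over the 3 pairs).

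**Figure D2:**
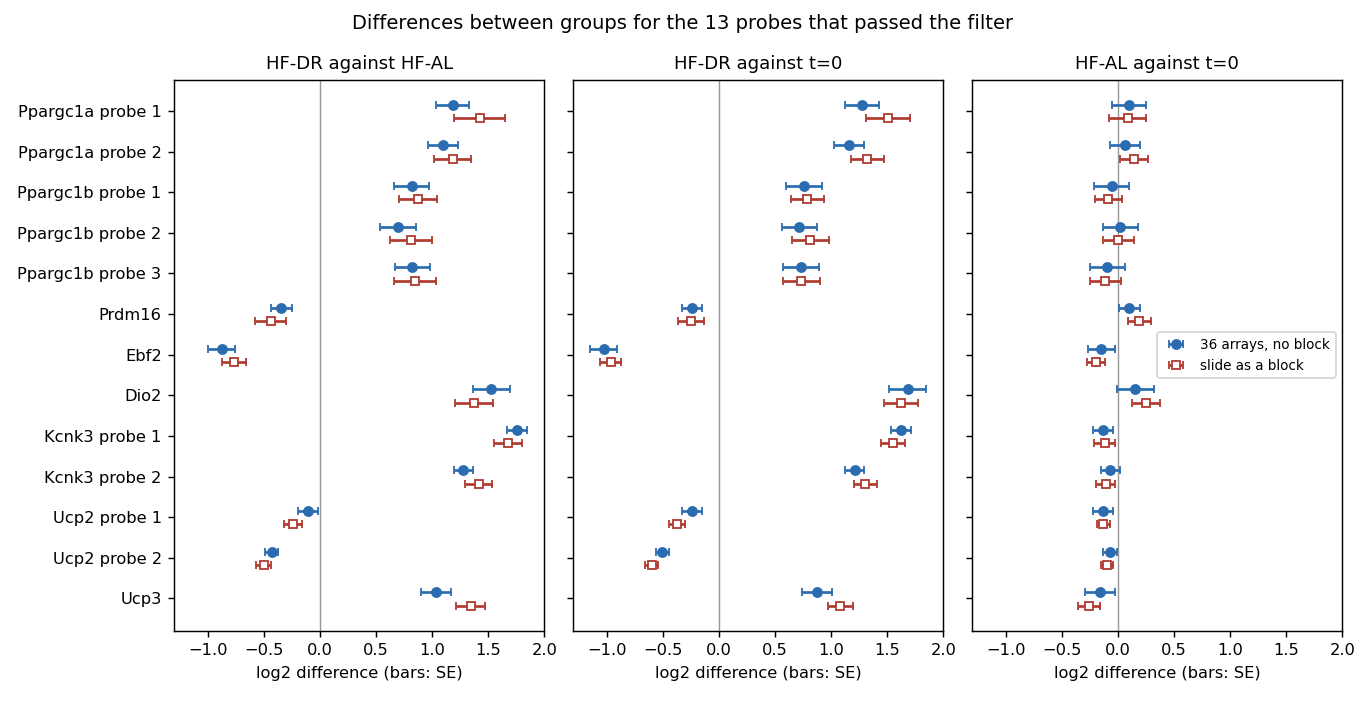
Log2 difference between groups (x axis) for each of the 13 probes that passed the filter, as fitted over 36 arrays (filled circles) and with the slide as a block (open squares). Bars are standard errors. The values of HF-DR against HF-AL and against t=0 are alike in sign for each probe, and those of HF-AL against t=0 lie between -0.16 and 0.15 without the block.

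Ucp1, the uncoupling protein that defines brown fat, was near background. Its probe (chromosome 8, 86187994 to 86188053 on mm8, forward strand) was well above background on 3 of 12 t=0 arrays, 0 of 12 HF-AL arrays and 6 of 12 HF-DR arrays. Net Cy5 signals had a lowest, median and highest array of 9.44, 27.5 and 299 scanner units in t=0, of 11.9, 19.7 and 27.4 in HF-AL and of 13.0, 45.1 and 175 in HF-DR. The brightest t=0 array was t=0 4, although its log2 ratio to the pool was 0.33. The 6 HF-DR arrays above background were HF-DR 4, 6, 7, 9, 11 and 12, with net signals of 40.1 to 80.5, whereas HF-DR 5, at 175, did not count as above background on an array with the lowest share of such probes.

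Log2 ratios of Ucp1 had medians of 0.08, 0.05 and 0.41 in t=0, HF-AL and HF-DR, and 7 of 12 HF-DR animals lay above every HF-AL animal. On the normalised Cy5 scale the mean was 6.76 (log2) in HF-DR, where 6 of 12 arrays were not well above background. In HF-AL it was 6.25, and 0 of 12 arrays were well above background. In a fit without the filter the difference was 0.40 (adjusted p = 0.000339), and in the 3 shared slides it ran from -0.12 to 0.56. The ratio is damped near background, because normexp with an added offset pulls dim ratios towards 0, so the size of a change in Ucp1 cannot be read from it.

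**Figure D3:**
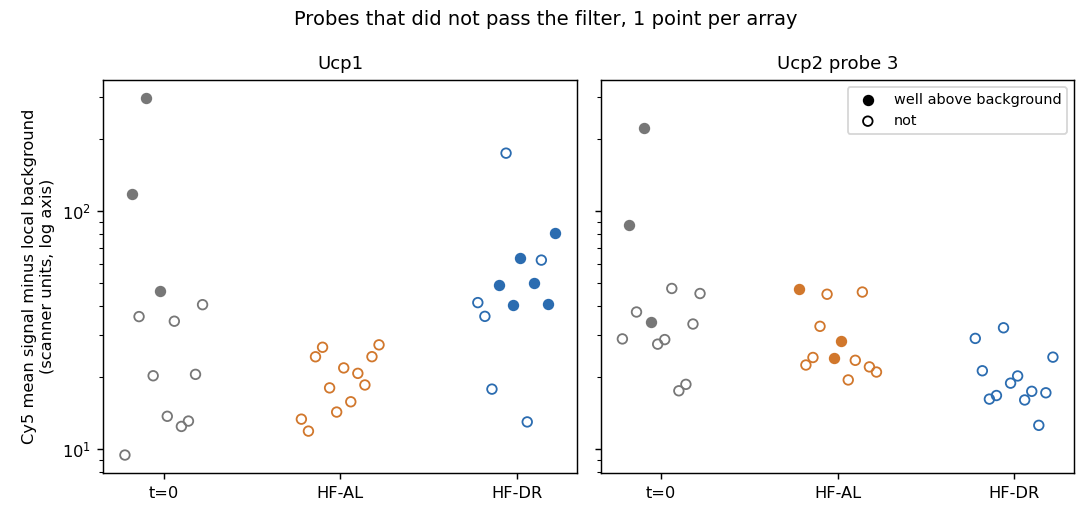
Cy5 signal minus local background in scanner units on a log axis (y) by group (x) for Ucp1 and for probe 3 of Ucp2, with 1 point per array. Filled points are well above background by the scanner software and open points are not. For Ucp1, 6 HF-DR points and 0 HF-AL points are filled.

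Genes around the 9 members were counted in lists drawn up for these pathways, each gene by its brightest probe that passed the filter. Over the 16497 genes so measured, 28.8% were higher and 35.9% lower in HF-DR than in HF-AL, and the median log2 difference was -0.04. Over all 24706 probes, 7504 were higher and 8185 lower. With the slide as a block these counts were 6164 and 6176, and without HF-DR 7, 8 and 9 they were 7866 and 8546. The lists were chosen with earlier results of these data known, so their counts are descriptions. Between HF-AL and t=0, where 0.467% of all genes were higher and 0.23% lower, 1 gene of the PRDM16 and EBF list was lower and none of the other lists had a call.

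Among other brown and beige adipocyte markers and effectors, 30 were measured, of which 16 rose and 7 fell (median 0.41). Elovl3, an elongase of very long chain fatty acids, differed by 4.50 ± 0.13 (adjusted p = 7.83e-26), Cidea, a lipid droplet protein of brown adipocytes, by 3.26 ± 0.18 (adjusted p = 1.71e-17) and the hormone Fgf21 by 2.84 ± 0.16 (adjusted p = 1.85e-17). S100b, a calcium-binding protein, fell by 1.85 on the log2 scale (adjusted p = 1.08e-15). The median of this list was 0.24 with the slide as a block, with 15 higher and 5 lower, and 0.24 without HF-DR 7, 8 and 9, with 15 higher and 6 lower. Of the 40 genes listed, 10 did not pass the filter and have no value.

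Of 42 partners of the PGC-1 coactivators and genes of mitochondrial biogenesis, 10 rose and 18 fell (median -0.09), near the 28.8% and 35.9% over all genes. Cycs, cytochrome c, rose by 1.39 ± 0.09 (adjusted p = 2.99e-15), while Prkaa1, a catalytic subunit of AMP-activated kinase, differed by -0.81 ± 0.06 and the coactivator Ncoa2 by -0.58 ± 0.05 (adjusted p = 8.17e-14 and 1.18e-12). With the slide as a block 8 were higher and 12 lower.

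The list of PRDM16 and EBF partners and of brown and white lineage factors was mostly lower, with 27 of 42 genes down, 5 up and a median of -0.28. Ehmt2, a histone methyltransferase, differed by -0.60 ± 0.05 (adjusted p = 3.19e-12), Pdgfra, a receptor of adipocyte progenitors, by -0.82 ± 0.08 (adjusted p = 2.00e-11) and the matrix protein Dpt by -1.47 ± 0.11 (adjusted p = 3.69e-14). Ctbp1, a corepressor, differed by 0.35 ± 0.05 (adjusted p = 9.73e-07). Beside this list and beside Ebf2, markers of preadipocytes and fibroblasts were lower, 17 of 20 with 0 higher and a median of -0.87. Pdgfra is in both lists, so their counts are not independent. Among the preadipocyte and fibroblast markers, Col1a1, Col3a1 and Gsn led with -2.05, -2.10 and -2.12. Mean log2 ratios of these 20 markers ran from -0.09 to 0.48 in t=0, from 0.01 to 0.26 in HF-AL and from -1.05 to -0.60 in HF-DR, so HF-DR did not overlap with the others. Their part in the lower Ebf2 was not tested.

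Genes of adrenergic and thyroid hormone signalling were split, with 17 of 39 higher and 13 lower and a median of -0.03. Over all genes the shares were 28.8% higher and 35.9% lower. Thrsp, a lipogenic gene that responds to thyroid hormone, rose by 2.37 ± 0.15 (adjusted p = 3.28e-16), and the transcription factor Atf4 by 1.24 ± 0.10 (adjusted p = 2.40e-13). Thra, a thyroid hormone receptor, differed by -0.80 ± 0.07 (adjusted p = 8.29e-13). Mitochondrial carriers related to the uncoupling proteins and genes of creatine, calcium and glycerol cycles had 9 of 31 higher and 11 lower, with a median of -0.18. These counts are near the shares over all genes. Slc25a1, the mitochondrial citrate carrier, rose by 2.81 ± 0.13 (adjusted p = 5.19e-20), and Gamt, of creatine synthesis, and Cpt1a, which feeds fatty acids to mitochondria, differed by -1.44 ± 0.09 and -0.80 ± 0.05.

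**Figure D4:**
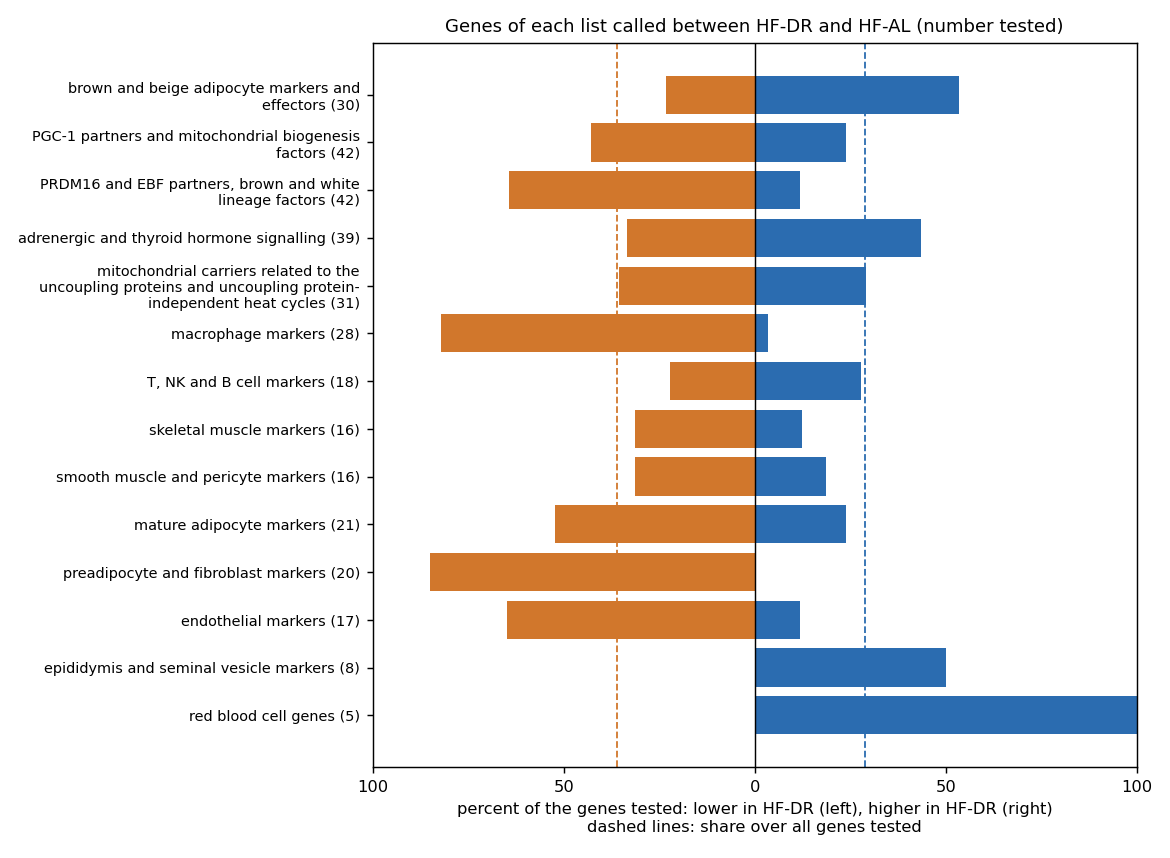
Percent of the measured genes of each list that were called higher (right) or lower (left) in HF-DR than in HF-AL (x axis), with the number of genes measured in brackets. Dashed lines are the shares over all 16497 genes, 28.8% higher and 35.9% lower. On the left the preadipocyte, macrophage, endothelial, mature adipocyte, PRDM16 and EBF, and PGC-1 lists extend past the line, and on the right the brown and beige, adrenergic and thyroid, tract and red blood cell lists and, barely, the carriers.

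Calls over all probes were fewer with the slide as a block, as given above. Markers of the other cells in the depot moved as follows between HF-DR and HF-AL. Macrophage markers were lower in 23 of 28, with a median of -0.61, and Lyz2, Cd74 and Csf1r differed by -1.37, -1.02 and -0.95, while Msr1 was higher by 0.28. Endothelial markers were lower in 11 of 17 and higher in 2, with Cldn5 at -1.19, Esam at -0.41 and Eng at 0.38, but in 4 lower and 2 higher with the slide as a block. Mature adipocyte markers were lower in 11 of 21 and higher in 5, with Plin4 at -2.11, Gpam at 2.37 and Dgat1 at 1.33, but 8 were lower and 8 higher with the slide as a block. Skeletal muscle markers, relevant to Ucp3 and Ppargc1a, were lower in 5 of 16 and higher in 2. Among them Tnnc1 was at 1.25, Mb at 0.99 and Myh2 at -0.53. Of the 16, 12 were above background on all HF-AL arrays and only 4 on all HF-DR arrays.

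Smooth muscle and pericyte markers were lower in 5 of 16 and higher in 3 (median 0.09), but in 9 and 3 without HF-DR 7, 8 and 9 (median -0.29), with Mcam at -1.60, Rgs5 at -1.12 and Cspg4 at 1.25. T, NK and B cell markers were higher in 5 of 18 and lower in 4, with Ptprc at -0.71, Coro1a at -0.53, Il7r at -0.45 and Ms4a1 at 0.92. Red blood cell genes were higher in 5 of 5, among them Slc4a1 at 0.78, Alas2 at 0.74 and Hba-a2 at 0.50, but in 0 with the slide as a block. Epididymis and seminal vesicle markers were higher in 4 of 8, with Pate4 at 2.98, Svs2 at 2.12 and Svs3a at 2.12, and in 0 without HF-DR 7, 8 and 9.

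Macrophage markers were measured beside Ucp2 because macrophages express it. Mean log2 ratios of the 28 markers ran from -0.22 to 0.55 in t=0, from -0.22 to 0.26 in HF-AL and from -1.26 to -0.24 in HF-DR, and all 28 were above background on every t=0 and HF-AL array. Within t=0, Ucp2 probe 1 followed them, with a Pearson r of 0.80 (permutation p = 0.00153, adjusted p = 0.0115) and a Spearman rho of 0.83 (p = 0.00125, adjusted p = 0.0187) over 12 animals, and an r of 0.78 without the 2 arrays farthest from the median of Ucp2. Within HF-AL r was 0.13 (p = 0.693, adjusted p = 0.777) and rho 0.29 (p = 0.365). Within HF-DR the relation was inverse, with an r of -0.90 (permutation p = 0.00094, adjusted p = 0.0115) and a rho of -0.79 (p = 0.00324, adjusted p = 0.0196). The r was -0.59 without HF-DR 8 and 9, the 2 arrays farthest from the median of Ucp2, which also held tract transcripts. Without HF-DR 7, 8 and 9 the permutation test gave an r of -0.66 (n = 9, p = 0.0499, adjusted p = 0.172) and a rho of -0.82 (p = 0.0109, adjusted p = 0.0821). Neither passed the threshold after adjustment.

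**Figure D5:**
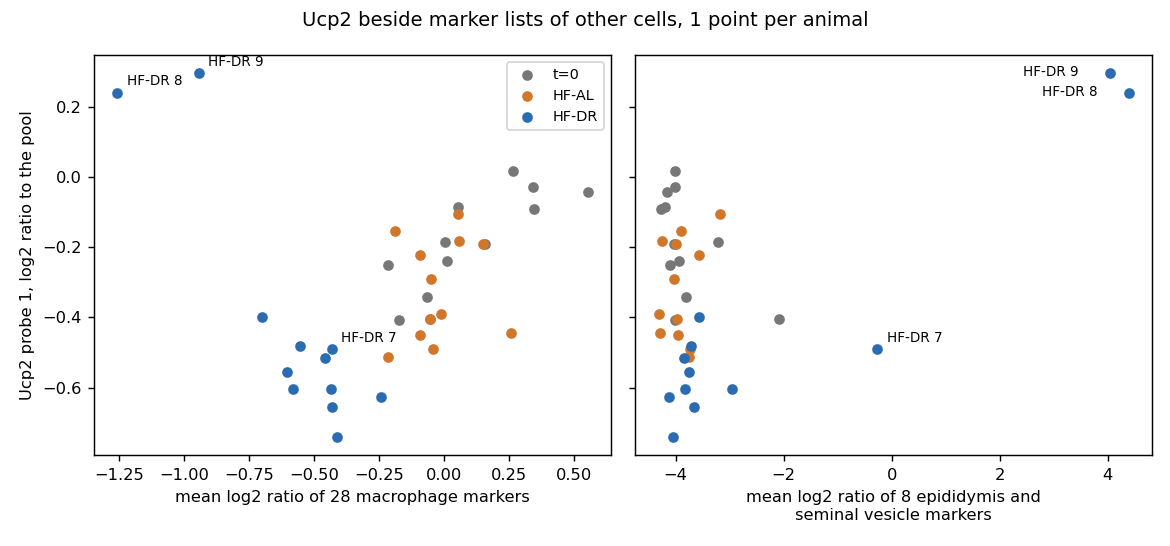
Log2 ratio of Ucp2 probe 1 (y axis) against the mean log2 ratio of 28 macrophage markers (left) and of 8 epididymis and seminal vesicle markers (right), with 1 point per animal coloured by group. HF-DR 8 and 9 are the highest in Ucp2, at 0.24 and 0.30, the lowest in macrophage markers and the highest in tract markers.

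In all 15 relations were computed, 5 pairs in each of 3 groups, and 7 had an adjusted p under 0.05 for r and 4 for rho. Ucp3 was inverse to the 16 skeletal muscle markers in HF-DR (r = -0.84, p = 0.0099, adjusted p = 0.0345; rho = -0.31, p = 0.329) and to Ucp2 in HF-DR (r = -0.90, p = 0.00741, adjusted p = 0.0345; rho = -0.40, p = 0.201) by permutation tests. Both rest on HF-DR 8 and 9, without which r was 0.15 and -0.03. By the same test, the relation of Ucp3 to muscle markers in HF-AL (r = -0.66, p = 0.0207, adjusted p = 0.0443, and rho = -0.47, p = 0.129) went to -0.21 without its 2 farthest arrays. Of the 16 muscle markers, 12 were above background on all HF-AL arrays and only 4 on all HF-DR arrays.

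Ppargc1a and Ppargc1b varied together within HF-DR, with an r of 0.65 (permutation p = 0.0127, adjusted p = 0.0345) and a rho of 0.78 (p = 0.00392, adjusted p = 0.0196), and with an r of 0.75 without the 2 farthest arrays. In t=0 and HF-AL their r was 0.42 (p = 0.172) and 0.29 (p = 0.353), and rho 0.29 and 0.34. Ppargc1a and Kcnk3 were inverse within HF-AL (r = -0.68, permutation p = 0.0138, adjusted p = 0.0345; rho = -0.73, p = 0.00904, adjusted p = 0.0339), with an r of -0.79 without the 2 farthest arrays, while r was 0.52 (p = 0.0801) in HF-DR and 0.07 (p = 0.829) in t=0. Without the arrays with tract transcripts both relations kept their size over 9 animals but missed the threshold in the permutation test, with an r of 0.76 (adjusted p = 0.0838) for Ppargc1b in HF-DR and of -0.78 (adjusted p = 0.083) for Kcnk3 in HF-AL. Whether these values differ between groups was not tested. Slides hold too few arrays of a group to give a relation within them.

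Over all 36 arrays, the genes with ratios most like those of each member were found by Pearson correlation, which holds both the gaps between groups and the variation among animals within them, so the correlation of deviations from the group means is given beside it. Kcnk3 was closest to Elovl3 (0.98, and 0.71 within groups), Ucp3 to Mrpl1 (0.95 and 0.84) and Dpf3 (0.94 and 0.82), and Ebf2 to Rhoj (0.94 and 0.80) and Nudt16 (0.94 and 0.83). Dio2 was closest to Rilpl2 (0.94 and 0.70) and C2cd4a (0.94 and 0.72), Ppargc1a to Fuom (0.93 and 0.74) and Tmem53 (0.93 and 0.84), and Ppargc1b to Ormdl3 (0.87 and 0.74) and Bzw2 (0.85 and 0.74). Prdm16 and Ucp2 had looser neighbours over the arrays, Kansl1l (0.75 and 0.63) and Ppp6r3 (0.73 and 0.58) for the former and Sh3bgrl3 (0.84 and 0.85) and Abi2 (0.84 and 0.84) for the latter.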

How the data were processed

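Per the file headers, the authors scanned 36 arrays and quantified them with Agilent Feature Extraction 9.5.3.1; the deposited intensity values used here are mean spot and median local background signals of each channel, without normalization. The deposited log10 ratios, made by Feature Extraction per the file headers, were not analysed beyond a check of the scale. Probe positions are on mm8 per the file headers. The deposited series matrix of log2 values follows the Cy5 signal (r of at least 0.987 per array), with medians of 9.26 to 9.29, and was an alternative; the sources used here do not state how the authors scaled it. Background was corrected with normexp (offset 50) after setting aside spots under -50, ratios were normalised by loess, flagged spots were left out, and spots of a probe were averaged. All 36 arrays entered 1 limma fit (version 3.58.1, R 4.3.3), with Benjamini-Hochberg adjustment over 24706 probes and calls at an adjusted p of 0.05. Permutation tests used 100000 resamples and scipy 1.17.1. A single dye orientation was used, so dye effects were not measured. The number of arrays limits the precision. The fit was tested on simulated data. Members, lists and alternatives were chosen with earlier results of these data known. Named genes were all member probes, up to 3 genes per list with the smallest adjusted p between HF-DR and HF-AL plus 1 going the other way, and the 2 genes most like each member, of which 1 is not reported here. Promoters came from the RefSeq table.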

Additional observations from a re-analysis of the deposited data

How the results depend on the processing

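Between HF-DR and HF-AL, each of the 13 member probes kept its direction under every alternative in which it was tested. The difference of Ucp2 probe 1 ran from -0.256 to -0.00126, so its direction carries little meaning at the small end. Calls were lost for Ppargc1b probe 2 without 10 of the 12 arrays with specks (the speck arrays), and gained for Ucp2 probe 1 with median centring (-0.20), with the slide as a block, without the arrays with tract transcripts (-0.21) and without HF-DR 7, 8 and 9, a setting chosen after seeing the data, as were leaving out 1 array at a time and the relations without tract arrays. Against t=0, Prdm16 was not called with the slide as a block or without the speck arrays (-0.21), nor Ucp2 probe 1 with specks included (-0.16), with scaling between arrays (-0.14) or without the speck arrays (-0.18). With 1 probe per gene, 7 genes were called against HF-AL and 8 against t=0, where 10681 and 10189 of all 16497 genes were called. Between HF-AL and t=0 no member was called under any alternative, and signs of these small differences turned for Ppargc1a without the tract arrays (-0.13 for both probes), for Ppargc1b probe 1 with specks included (0.0334) and without the speck arrays (0.11), for probe 2 with median centring (-0.00942) and without the tract arrays (-0.0712), for probe 3 without the speck arrays (0.00324) and for Kcnk3 probe 2 with specks included (0.0127) and without the tract arrays (0.0174). Leaving out 1 array at a time gave a lowest value of -0.00277 for Ppargc1a probe 2, a highest of 0.0173 for Ppargc1b probe 1 and a range of -0.0495 to 0.0938 for Ppargc1b probe 2. The count of all probes called between HF-AL and t=0 was 167 (94 higher, 73 lower). It was 105 with specks included (86 and 19), 328 with the processed signals (122 and 206), 170 with the series matrix (65 and 105), 91 with median centring, 726 with scaling, 105 without the filter, 450 with only the 2 groups, 328 without the tract arrays, 547 without HF-DR 7, 8 and 9 and 106 without the speck arrays. The within-group relations with an adjusted p under 0.05 went from 7 to 1 without the tract arrays, with 9 animals left in HF-AL and in HF-DR, although r stayed as large for Ppargc1a with Ppargc1b in HF-DR (0.76) and with Kcnk3 in HF-AL (-0.78). Causes were not tested. Replicate numbers are shared by the groups but did not meet the rule for pairs, which asks for an r over 0.1 in every pair (r of same-numbered deviations from -0.12 to 0.39 between HF-DR and HF-AL, with a median of 0.19, 9 of 12 pairs over 0.1 and 2 of 12 best with their own number, and no higher medians than 0.000826 in the other comparisons). A replicate block called 12 member probes in HF-DR against HF-AL, 0 in HF-AL against t=0 and 13 in HF-DR against t=0. Over all 24706 probes it called 15668, 189 and 14927. Low signal limits Ucp1 and Ucp2 probe 3.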
